A study of Danio rerio with 2 samples.

Results

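Differentiating type A spermatogonia (SPG-Ad) were compared with undifferentiated type A spermatogonia (SPG-Aun) in single-cell RNA-seq data from adult zebrafish testis. Both stages were taken from the cell annotation that accompanies the study, matched by barcode, and were passed on to the cells of replicate 2 from the labels of their 15 nearest annotated neighbours. SPG-Ad held 292 cells in replicate 1 and 542 cells in replicate 2, and SPG-Aun held 308 and 716 cells. Together these are 1858 of the 5940 cells that received a germ cell stage and of the 9980 barcodes in the files.

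The study made single-cell maps of zebrafish spermatogenesis, and 2 RNA libraries from trypsin-dissociated testes of fish aged 6 months are used here. Both stages come from the same 2 libraries, so they share genotype, age and treatment. The growth protocol calls the fish wild type, and the extraction protocol calls them transgenic without naming a transgene. The labels do not say how many fish went into each library. No label gives the cell cycle phase of a cell, so stage and cell cycle position cannot be told apart in any value below.

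Undifferentiated type A spermatogonia include the stem cells of the testis and divide to renew themselves or to enter differentiation. Differentiating type A spermatogonia pass through a series of divisions inside a cyst of Sertoli cells and give rise to type B spermatogonia (SPG-B), which enter meiosis as primary spermatocytes (SPC-I). In a dividing cell, replication origins are licensed in late mitosis and G1 by loading of the MCM2-7 helicase, histone mRNA accumulates while DNA is copied in S phase, and B-type cyclins with Cdc20 act in mitosis.

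Core and linker histone genes were higher in SPG-Ad than in SPG-Aun, 21 of 22 by name, and so were e2f8, fbxo5, ccna2, the condensin genes smc2 and smc4 and the kinetochore genes nuf2, spc24 and knl1. The origin recognition genes orc1 and orc6 (2 of 6 subunits), the helicase genes mcm3, mcm4 and mcm5 (3 of 6), the licensing factor cdt1, the mitotic genes cdc20, ccnb1 and ccnb3, and cdca7b and hells were lower in SPG-Ad. Among these, mcm3, mcm4 and cdca7b are SPG-Aun markers of the study, so their levels describe the labels. The study named SPG-Ad by the histone gene hist1h2a6, so the histone genes may in part describe the label too. Of the 235 higher genes 105 carried only a clone name. Unique molecular identifier (UMI) counts were summed per stage and replicate and tested with edgeR's quasi-likelihood test over the sums of all 7 stages, with Benjamini-Hochberg adjustment over 14176 genes. A gene was called at an adjusted p under 0.05 with the same sign in both replicates. Of all genes tested, 235 were higher in SPG-Ad (1.66%) and 58 were lower (0.409%), of which 187 (1.32%) and 40 (0.282%) changed more than 2-fold. The plot of log2 ratios by replicate shows where these genes lie.

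**Figure D1:**
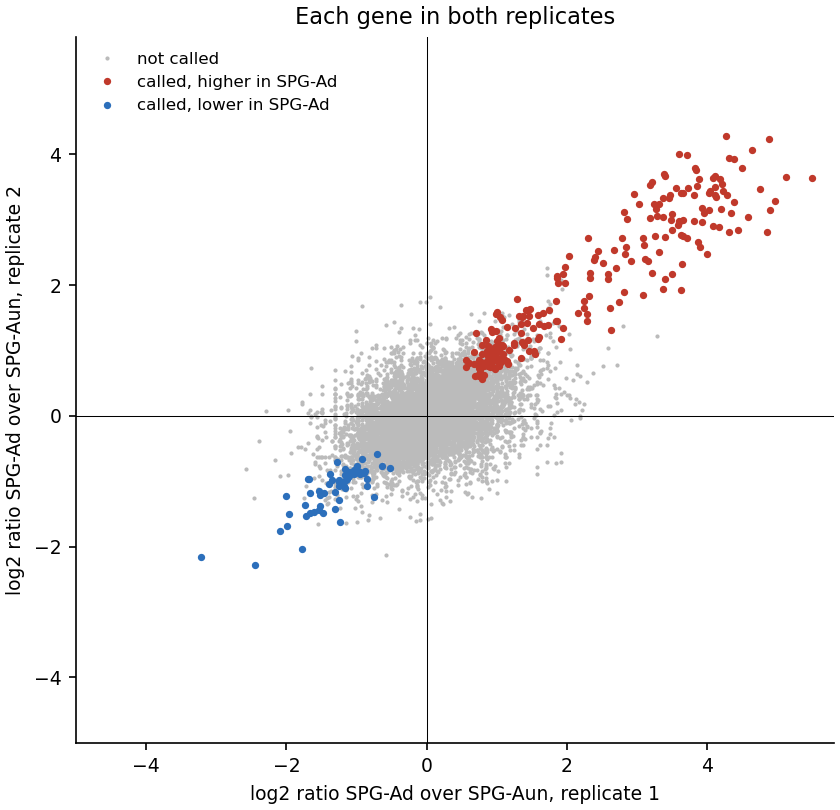
Each point is 1 of the 14176 genes tested, with the log2 ratio of SPG-Ad over SPG-Aun in replicate 1 on the x axis and in replicate 2 on the y axis. The 235 genes called higher and the 58 called lower lie in the upper right and lower left corners, and 0 genes past the adjusted p had opposite signs.

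Both sums of a replicate come from 1 library, and a fit with the replicate as a block called 518 genes higher (3.65%) and 227 lower (1.6%), including all 293 genes called without it. With the number of cells as library size 371 genes were higher and 35 lower, where the median of all genes moved by 0.19 on the log2 scale, and DESeq2 called 288 higher and 166 lower. Leaving out 1 sum at a time gave 142 higher and 22 lower without SPG-Ad replicate 1, and 161 and 23 without SPG-Ad replicate 2. The same step gave 137 higher and 21 lower without SPG-Aun replicate 1, and 115 and 27 without SPG-Aun replicate 2. The stage labels were themselves made from expression, so the p-values measure how far a difference repeats between the 2 libraries. When the genes were split at random into 2 sets and each set was tested with replicate 2 labelled from the other, 265 of the 293 genes were called again, while replicate 1 kept the study's labels, made from all genes. The counts also rest on how replicate 2 was labelled: with scanpy's default choice of variable genes, which recovered 76.9% of hidden study labels in replicate 1 against 96.3% here, 1 gene was called higher and 0 lower. That setting put 52 replicate 2 cells in SPG-Ad, 2 of them among the 542 used here, and 13 of the 716 SPG-Aun cells used here kept their stage, so its replicate 2 sums are of nearly all different cells.

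The labels were checked against markers. The germ cell genes ddx4, an RNA helicase of germ granules, and piwil1, which binds piRNAs, were at like levels in both stages. In CPM, the counts of a gene scaled to a fixed library total, ddx4 was at 2451 and 2333 in SPG-Ad replicates 1 and 2, against 2380.4 and 2272 in SPG-Aun (log2 fold change 0.04, SE 0.18). For piwil1 the levels were 1779 and 1744 CPM in SPG-Ad and 1735 and 1669 CPM in SPG-Aun, a log2 fold change of 0.05 (SE 0.17). Summed over the 7 matched SPG-Ad markers, with marker sums taken over unscaled totals, SPG-Ad had 9765 and 9490.2 CPM and SPG-Aun 4435 and 4888 CPM, and 3 of the 7 were called higher. Over the 10 matched SPG-Aun markers the sums were 3551 and 7235 CPM in SPG-Ad and 5173 and 8517 CPM in SPG-Aun, with 4 called lower. The study named SPG-Aun by eno3, e2f5 and ripply2 and SPG-Ad by hist1h2a6. The other markers were found from the stages once named. Among them are mcm3, mcm4 and cdca7b for SPG-Aun and h2ax, zgc:153409 and tubb2b for SPG-Ad. The levels of both kinds of marker thus describe the labels and test nothing.

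Of the other SPG-Aun markers, the heat shock gene hsp70l followed the library and not the stage, at 1098 and 4898 CPM in SPG-Ad and 1367 and 4823 CPM in SPG-Aun. The nucleolar gene nop56 was at 418 and 436 CPM in SPG-Ad, against 586 and 562 CPM in SPG-Aun, with an adjusted p of 0.43 by edgeR's quasi-likelihood test. The glycolytic gene eno3 and the transcriptional repressor ripply2 had adjusted p of 0.053 and 0.092 by the same test, and 0.0061 and 0.0052 with the replicate block. Among the SPG-Ad markers, the tubulin gene tuba8l4, pcna, lbr and sumo3b had positive log2 fold changes of 0.95, 0.72, 0.61 and 0.53, and none of these was called without the block. The marker setb could not be assigned, since 2 identifiers carry the name SET, with log2 fold changes of 0.20 and 0.28.

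Markers of somatic cells were low in both stages. Summed over 10 Sertoli cell markers, SPG-Ad had 6.93 and 8.91 CPM and SPG-Aun 9.61 and 10.3 CPM, with fshr, fxyd6 and inha at 0 in all 4 sums. The 6 Leydig cell markers summed to 29.5 and 65.8 CPM in SPG-Ad and 31.3 and 64.3 CPM in SPG-Aun, and the 8 immune markers to 52.5 and 55.8 CPM against 44.5 and 60.03 CPM. Erythrocyte markers, with hbae1.3 at 0 in all 4 sums, and myoid and endothelial markers stayed under 3 CPM, and no member of these lists was called. The 4 matched markers of SPG-B summed to 318 and 356 CPM in SPG-Ad and 693 and 676 CPM in SPG-Aun, and ccnb1 and cdkn1cb of that list were called lower in SPG-Ad.

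SPG-Ad cells held more UMIs per cell than SPG-Aun cells, by a smaller margin in replicate 2. The median was 13207.5 and 12405.5 UMIs in SPG-Ad, against 10314.5 and 11749 UMIs in SPG-Aun, which are ratios of 1.28 and 1.06 and a mean ratio of 1.17 ± 0.159 (SD, n = 2). Median detected genes were 3744.5 and 3451.5 in SPG-Ad and 3173 and 3381 in SPG-Aun. No test of these medians was run. The median share of mitochondrial UMIs was 2.32% and 2.28% in SPG-Ad and 2.36% and 2.39% in SPG-Aun.

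Of the 28 gene lists the histones had the highest median log2 fold change, 2.23 over 24 tested members, of which 14 were called higher and 0 lower (16 and 0 by DESeq2). The list was drawn up with 5 clone-named genes as members, 3 of them called, and its 19 members with a histone name had a median of 1.62 with 11 called higher. A count by name alone took the 22 tested genes named after histone gene clusters, as hist1h2a1, histh1l2 or h2bc1 are, and h2ax2, but not h2ax, h2az, macroh2a or h3f3 genes. Of these, 21 were called higher in SPG-Ad and 0 lower, where 1.66% of all genes were called higher. These genes encode the core histones that wrap DNA and the linker histones that bind between nucleosomes. The SPG-Ad marker hist1h2a6 has a clone name in the gene table, was matched by a RefSeq synonym and lies outside the 22. It was at 117 and 104 CPM in SPG-Ad, against 6.39 and 7.84 CPM in SPG-Aun, a log2 fold change of 3.91 (SE 0.29). The study named SPG-Ad by this gene, so its level describes the label and tests nothing. Histone gene copies can share reads, so the count of 21 may in part describe the label too. How far it does was not tested. The H4 gene hist1h4l was at 51.8 and 34.1 CPM in SPG-Ad and at 2.66 and 3.38 CPM in SPG-Aun (log2 fold change 3.76, SE 0.43). Both SPG-Ad sums lay far above both SPG-Aun sums for each of these genes.

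The H3 gene hist2h3c was at 68.4 and 42.1 CPM in SPG-Ad and 3.995 and 4.17 CPM in SPG-Aun. The linker histone gene histh1l2 was at 152 and 113 CPM in SPG-Ad and 15.7 and 11.4 CPM in SPG-Aun (log2 fold change 3.32, SE 0.32), and histh1l3 and h1l1 rose by 3.59 and 3.26 on the log2 scale. Further H2A and H2B genes rose as well, with log2 fold changes of 4.94 for hist1h2a2, 4.34 for hist1h2a1, 3.95 for h2bc1 and 3.92 each for hist1h2a4 and hist1h2a5. These low-abundance genes had between 0.533 and 3.18 CPM in SPG-Aun, so their fold changes carry wide counting error. The replicates did not overlap between the stages for any of the named histone genes, nor for any of the 66 called genes chosen by the naming rule. A call makes such separation likely, here and for the genes above and below, so it is a description and adds no support.

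Of 8 tested variant histone genes on the list, h2ax and h3f3a were called higher and 6 were not called with or without the replicate block, with log2 fold changes from 0.07 to 0.40. The H2A.X gene h2ax, whose product is phosphorylated at DNA breaks, is an SPG-Ad marker of the study. It was at 498 and 509.8 CPM in SPG-Ad, against 158 and 171 CPM in SPG-Aun (log2 fold change 1.62, SE 0.20), which describes the label. The gene h2ax2, counted among the 22, was at 62.6 and 46.1 CPM in SPG-Ad and 4.26 and 2.38 CPM in SPG-Aun, a log2 fold change of 4.14 (SE 0.37). The H3.3 gene h3f3a, singled out after its values were seen, was at 1512 and 2172 CPM in SPG-Ad and 772 and 1043 CPM in SPG-Aun (log2 fold change 1.02, SE 0.23). Both SPG-Ad sums lay above both SPG-Aun sums for h2ax, h2ax2 and h3f3a.

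**Figure D2:**
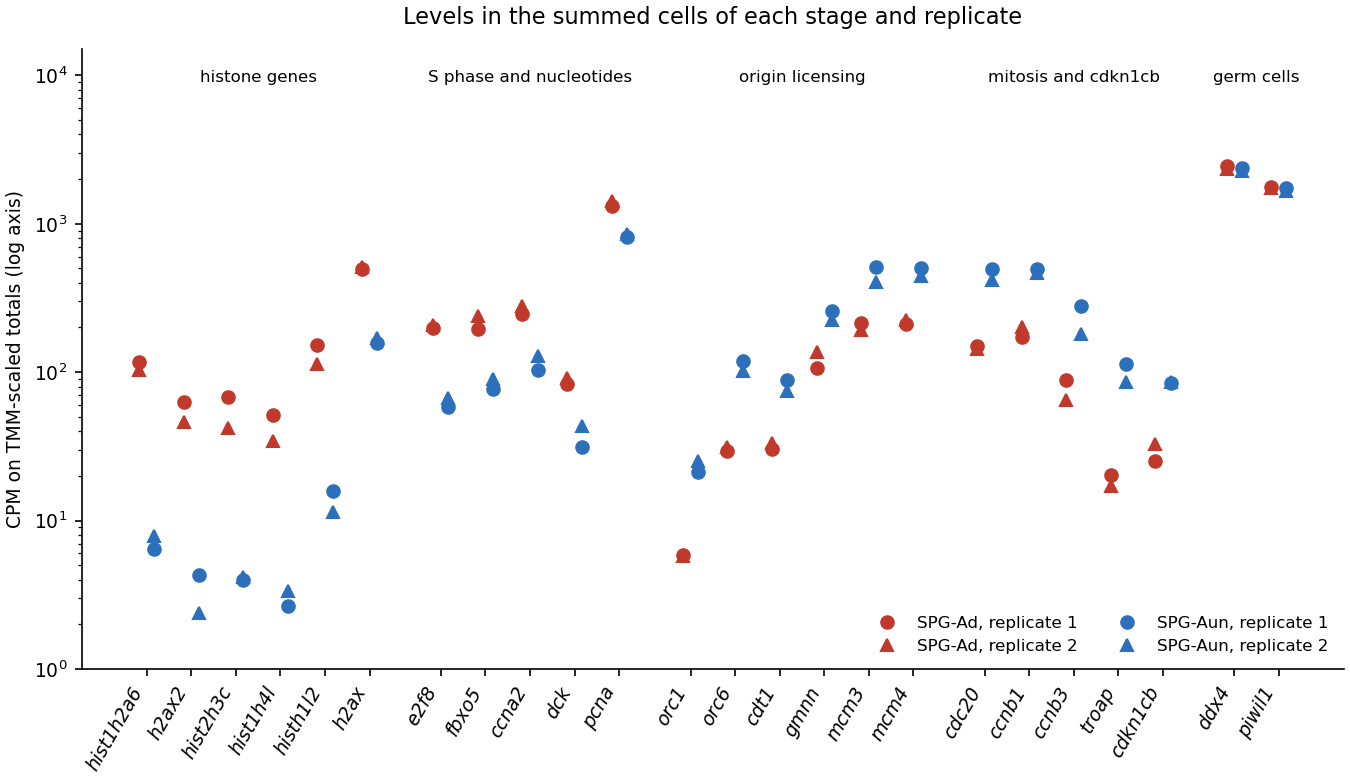
Level of named genes in CPM on a log axis, with 1 point per replicate (circle for replicate 1, triangle for replicate 2) and SPG-Ad left of SPG-Aun for each gene. The histone genes shown lie higher in SPG-Ad, and ddx4 and piwil1 lie together. The licensing genes shown lie lower, as do cdc20, ccnb1, ccnb3, troap and cdkn1cb, and all of these were called lower. Over the whole mitosis list 11 genes were called higher and 3 lower. The licensing genes cdc6, mcm7 and orc2 to orc5 were not called and are not drawn.

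The SPG-Ad marker zgc:153409, a member of the histone list that has only a clone name in the gene tables, was at 1985 and 1459.5 CPM in SPG-Ad, against 207 and 215 CPM in SPG-Aun (log2 fold change 3.03, SE 0.21). Another clone-named member of that list, zgc:153405, was at 257 and 199.9 CPM in SPG-Ad and 9.86 and 11.4 CPM in SPG-Aun. Clone names were frequent among the risers: 105 of the 235 genes called higher carried only a clone name and 14 had no symbol, against 1928 and 498 of the 14176 genes tested. By gene order in the RefSeq GRCz12tu table, 36 of the 47 clone-named genes higher over 2-fold that could be placed (76.6%) lay within 5 genes of a histone-named gene, 23 of them on chromosome 25 and 12 on chromosome 7. Of all tested clone-named genes that could be placed the share was 44 of 1065 (4.13%), and of the 40 placed higher genes with other symbols it was 0. The gene tables give these neighbours no function, and apart from the members named above none was counted as a histone gene.

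Histone genes occur in many near-identical copies, so reads can be shared between copies and the count of any single histone gene is uncertain. Most mRNAs of replication-dependent histones end in a stem-loop in place of a poly(A) tail, and the libraries were primed on poly(A), so the values count the primed part of each transcript pool. Whether that part differs between the stages was not tested.

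The histone difference was spread over the cells. The 22 histone-named genes took a median of 0.108% and 0.0865% of the UMIs of a cell in SPG-Ad, against 0.0259% and 0.0248% in SPG-Aun. The range from the 10th to the 90th percentile of cells was 0.0433% to 0.204% and 0.0392% to 0.170% in SPG-Ad, and 0 to 0.0658% and 0 to 0.0732% in SPG-Aun. No histone-named UMI was found in 1 of 292 and 1 of 542 SPG-Ad cells, against 40 of 308 and 87 of 716 SPG-Aun cells. The distributions overlapped at their edges and their medians were well apart in both replicates. With every cell thinned to 5000 UMIs the medians were 0.1% and 0.08% in SPG-Ad and 0.02% and 0.02% in SPG-Aun, which leaves out 2 and 9 SPG-Ad cells and 8 and 23 SPG-Aun cells below that depth. Thinned cells without a histone-named UMI numbered 6 and 20 in SPG-Ad and 91 and 229 in SPG-Aun.

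**Figure D3:**
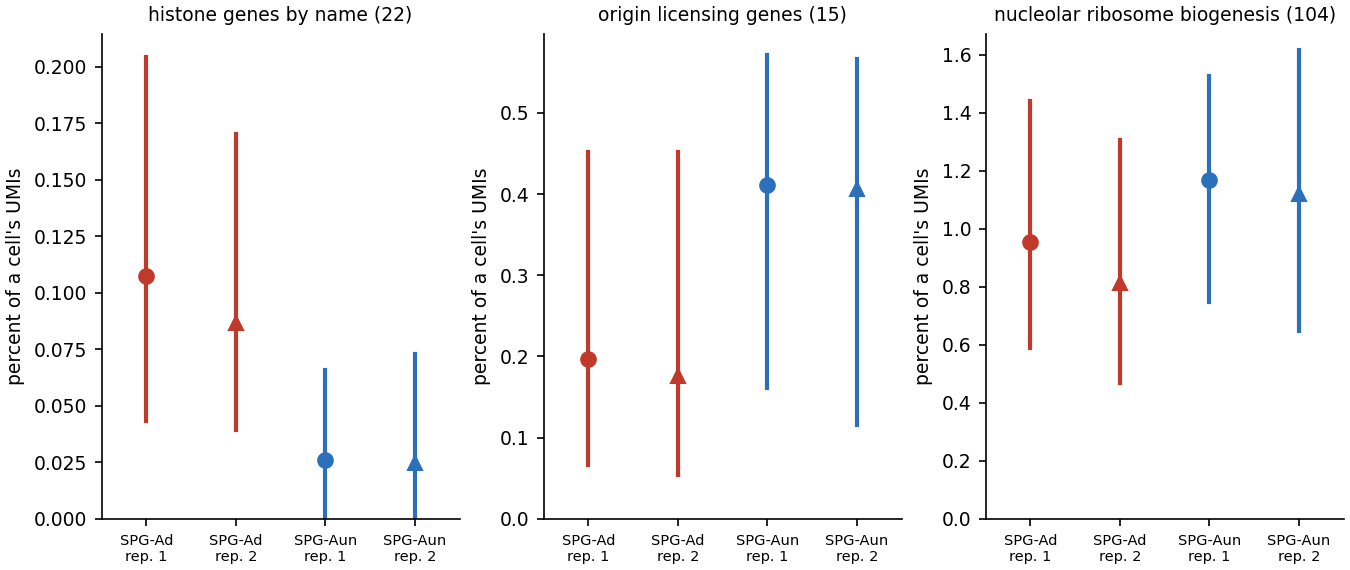
Percent of a cell's UMIs from histone-named, origin licensing and nucleolar genes by stage and replicate, with the point at the median cell and the bar from the 10th to the 90th percentile of cells. SPG-Ad cells hold more histone UMIs, with medians of 0.108% and 0.0865% against 0.0259% and 0.0248%. They hold fewer licensing UMIs, with medians of 0.196% and 0.176% against 0.411% and 0.406%. The licensing genes include the SPG-Aun markers mcm3 and mcm4, so their medians partly describe the labels. The study named SPG-Ad by a histone gene, so the histone medians may do so as well.

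Of 28 tested histone chaperones and HMG proteins 2 were called higher and 0 lower, where 1.66% and 0.409% of all genes were. The list median was 0.17 on the log2 scale beside 0.00 for all genes tested. The histone-binding gene rbbp4 was at 415 and 386 CPM in SPG-Ad and 225 and 214 CPM in SPG-Aun, and the chromatin protein gene hmga1a at 563 and 629 CPM against 335 and 349 CPM. The stem-loop binding protein gene slbp, needed for histone mRNA processing, was at 592 and 672 CPM in SPG-Ad and 362 and 393 CPM in SPG-Aun, with an adjusted p of 0.064 by edgeR's quasi-likelihood test and 0.0055 with the replicate block. The 2 genes of chromatin assembly factor 1 measured, chaf1a and chaf1b, had log2 fold changes of 0.63 and 0.51 and were not called with or without the block.

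Of 57 tested genes of DNA replication edgeR called 0 higher and 8 lower (9 and 10 with the replicate block, 2 and 10 by DESeq2). Without the block, edgeR called 1.66% of all genes higher and 0.409% lower. At an unadjusted p under 0.05 the list had 13 higher and 11 lower, where 6.62% of all genes were higher and 4.37% lower, and the median log2 fold change was 0.14. The 8 called lower were orc1, orc6, cdt1, gmnn, mcm3, mcm4, mcm5 and gins2, most of which act in origin licensing. The origin recognition subunit gene orc6 was at 29.3 and 31.3 CPM in SPG-Ad, against 119 and 102 CPM in SPG-Aun (log2 fold change -1.86, SE 0.21, adjusted p 8.4e-05 by edgeR's quasi-likelihood test). Its partner orc1 was at 5.83 and 5.77 CPM in SPG-Ad and 21.3 and 25.3 CPM in SPG-Aun, a log2 fold change of -2.01 (SE 0.29). The other 4 subunits, orc2 to orc5, had log2 fold changes between -0.26 and 0.43 and were not called. The SPG-Ad sums of orc1 and orc6 stood well below both SPG-Aun sums.

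The gene cdt1, which loads the MCM helicase, was at 30.2 and 33.5 CPM in SPG-Ad, against 88.2 and 74.6 CPM in SPG-Aun (log2 fold change -1.34, SE 0.18). Its inhibitor geminin, gmnn, was also lower, at 106 and 137 CPM in SPG-Ad and 259 and 224 CPM in SPG-Aun, and the ORC-associated gene lrwd1 fell by 1.34 on the log2 scale. The loader cdc6 did not follow them, at 221 and 223 CPM in SPG-Ad and 164 and 175 CPM in SPG-Aun, and was not called.

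Among 6 tested genes of the MCM2-7 helicase, 3 were called lower, 5 had negative log2 ratios in both replicates and the median log2 fold change was -0.83. The helicase gene mcm3 was at 214 and 192 CPM in SPG-Ad, against 507 and 405 CPM in SPG-Aun (log2 fold change -1.17, SE 0.23), and mcm4 at 210.0 and 224 CPM against 502 and 444 CPM. Both genes are SPG-Aun markers of the study. The gene mcm5 was lower as well, at 243 and 277 CPM in SPG-Ad and 477 and 498 CPM in SPG-Aun, while mcm2 was called only with the block (adjusted p 0.10 without it and 0.0067 with it, by edgeR's quasi-likelihood test). The subunit gene mcm7 stood apart, at 240.4 and 203 CPM in SPG-Ad and 251 and 201 CPM in SPG-Aun. The GINS gene gins2, whose product joins the helicase at firing, fell by 0.79 on the log2 scale, and mcm5 and gins2 were called but lie outside the rule that chose the named genes. The call of mcm3 was lost without SPG-Ad replicate 1, SPG-Ad replicate 2 or SPG-Aun replicate 1, with adjusted p of 0.0767, 0.145 and 0.145 by edgeR's quasi-likelihood test and the same direction.

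Per cell, 15 licensing identifiers (14 of them tested) took a median of 0.196% and 0.176% of UMIs in SPG-Ad, against 0.411% and 0.406% in SPG-Aun. The cells overlapped widely: the 10th to 90th percentiles ran over 0.0665% to 0.451% and 0.0546% to 0.451% in SPG-Ad, and over 0.161% to 0.571% and 0.116% to 0.566% in SPG-Aun. A part of the SPG-Ad cells thus lay inside the SPG-Aun range. The licensing set includes mcm3 and mcm4, SPG-Aun markers of the study, so its medians partly describe the labels.

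None of the DNA polymerase, replication factor C or pcna genes tested was called. All 4 polymerase epsilon genes had positive log2 ratios in both replicates, with fitted log2 fold changes from 0.37 to 0.81, and 4 of the 5 replication factor C genes did. With the replicate block 2 of each group were called higher. The sliding clamp gene pcna was at 1321 and 1417 CPM in SPG-Ad and 809 and 858 CPM in SPG-Aun, with an adjusted p of 0.17 by edgeR's quasi-likelihood test and 0.022 with the block. Polymerase alpha and primase, polymerase delta and replication protein A genes had medians of 0.10, 0.07 and -0.02, and with the block 1 gene of polymerase alpha and primase was called higher and 1 of polymerase delta lower, at a log2 fold change of -0.50.

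Of 27 tested genes of nucleotide synthesis 2 were called higher and 1 lower, where 1.66% and 0.409% of all genes were. The salvage kinase gene dck was at 83.1 and 91.9 CPM in SPG-Ad, against 31.4 and 43.2 CPM in SPG-Aun (log2 fold change 1.21, SE 0.21), and the thymidylate kinase gene dtymk at 101 and 109 CPM against 46.9 and 59.97 CPM. The nucleoside diphosphate kinase gene nme3 was lower, at 37.3 and 39.7 CPM in SPG-Ad and 73.5 and 73.1 CPM in SPG-Aun. Among the largest rises outside this list, SPR, named for sepiapterin reductase, was at 75.5 and 91.0 CPM in SPG-Ad and 20.2 and 21.7 CPM in SPG-Aun, and mibp at 117 and 206 CPM against 47.9 and 59.2 CPM.

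Among G1 and S phase regulators 3 of 30 were called higher and 3 lower, where 1.66% and 0.409% of all genes were. The E2F family split. E2f8 is a repressor of the E2F programme, and its gene was at 198 and 208 CPM in SPG-Ad, against 58.6 and 67.3 CPM in SPG-Aun (log2 fold change 1.68, SE 0.19, adjusted p 6.7e-05 by edgeR's quasi-likelihood test). The activator gene e2f3 was at 15.5 and 19.8 CPM in SPG-Ad and 51.1 and 39.1 CPM in SPG-Aun, and e2f5 at 50.3 and 46.1 CPM against 113 and 91.1 CPM. The other 4 tested members of the family were not called. The cyclin E gene ccne2, which acts at S phase entry, was higher by 0.72 on the log2 scale. Its call was lost, with the same direction, when replicate 2 was labelled from the other set of genes. The cyclin-dependent kinase inhibitor gene cdkn1cb was lower, at 25.03 and 33.0 CPM in SPG-Ad and 84.4 and 85.4 CPM in SPG-Aun.

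Of 64 mitosis genes 11 were called higher and 3 lower, where 1.66% and 0.409% of all genes were. Their median log2 fold change was 0.40. The block called 24 of them higher and 4 lower, beside 3.65% and 1.6% of all genes. The genes lower in SPG-Ad were cdc20, ccnb1 and ccnb3. Cdc20, which activates the anaphase-promoting complex, had its gene at 149.5 and 144 CPM in SPG-Ad, against 494 and 415 CPM in SPG-Aun (log2 fold change -1.63, SE 0.16, adjusted p 2.6e-05 by edgeR's quasi-likelihood test). The B-type cyclin genes ccnb1 and ccnb3 were at 174 and 201 CPM and at 88.3 and 64.5 CPM in SPG-Ad, against 497 and 462 CPM and 279.9 and 182 CPM in SPG-Aun. The related gene ccnb2 did not follow, with a log2 fold change of 0.53 that was not called. The spindle gene troap had the largest fall among genes named by size of change, at 20.3 and 17.2 CPM in SPG-Ad and 113 and 85.9 CPM in SPG-Aun, and the importin gene kpna2 was at 147 and 163 CPM against 362 and 435 CPM.

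Other mitotic regulators were higher or not called. The gene fbxo5, which encodes the Emi1 inhibitor of the anaphase-promoting complex, was at 196 and 239.6 CPM in SPG-Ad, against 77.0 and 90.3 CPM in SPG-Aun (log2 fold change 1.38, SE 0.18). The cyclin A gene ccna2 was at 247 and 278 CPM in SPG-Ad and 104 and 128 CPM in SPG-Aun, and the G2 transcription factor gene foxm1 rose by 0.99 on the log2 scale. The kinase genes cdk1, plk1 and aurka and the phosphatase gene cdc25b, which act at mitotic entry, had log2 fold changes of 0.47, -0.14, -0.10 and -0.44 and were not called. All 8 condensin genes, which compact mitotic chromosomes, had positive log2 ratios in both replicates with a median of 0.80, and smc2 and smc4 were called (7 of 8 with the block). The gene smc2 was at 223 and 179 CPM in SPG-Ad and 107 and 84.2 CPM in SPG-Aun. Of 5 outer kinetochore genes, which attach chromosomes to microtubules, nuf2, spc24 and knl1 were called higher, with log2 fold changes of 0.68, 1.02 and 1.00. The checkpoint gene bub3, the kinesin gene cenpe and the augmin genes haus1 and haus4 rose by 0.97, 0.72, 0.82 and 0.74 on the log2 scale. Outside the list, the checkpoint gene bub1bb and the mitotic gene cdca3, singled out after their values were seen, fell by 0.90 and 0.91 on the log2 scale.

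**Figure D4:**
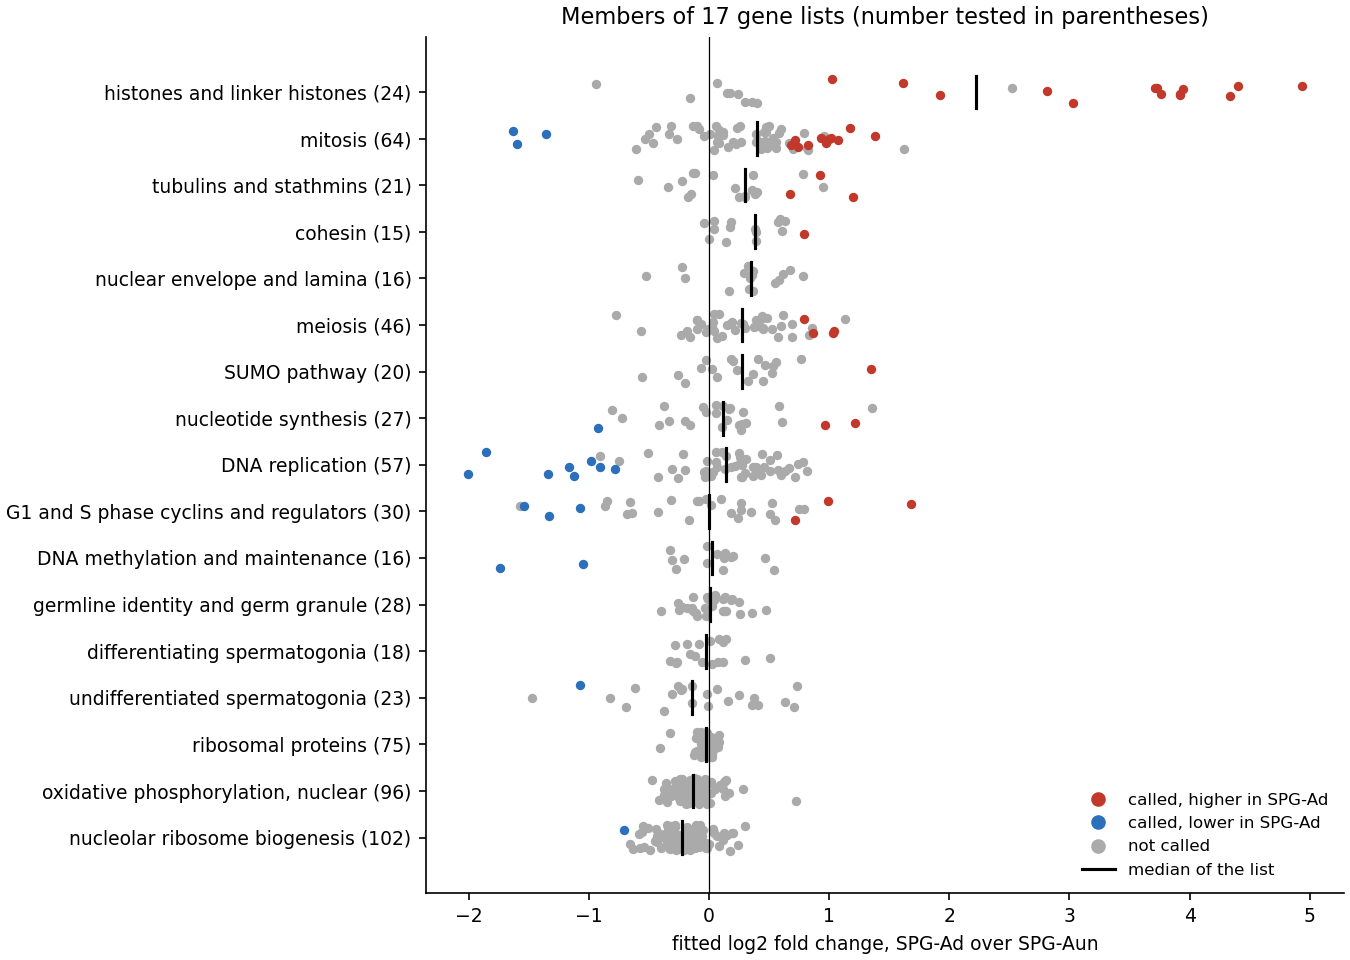
Log2 fold change of SPG-Ad over SPG-Aun for the tested members of each gene list, with 1 point per gene, called genes coloured and a line at the list median. The histone list has the highest median, at 2.23, the mitosis list lies at 0.40 and the nucleolar list at -0.23, beside 0.00 for all genes tested.

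Of 21 tubulins and stathmins 3 were called higher and 0 lower, where 1.66% of all genes were called higher. The gene tubb2b was at 1779.8 and 1815 CPM in SPG-Ad and 898 and 1002 CPM in SPG-Aun, tubb4b at 2166 and 2253 CPM against 1256 and 1516 CPM, and the gamma-tubulin complex gene tubgcp4 at 47.3 and 47.5 CPM against 16.8 and 23.6 CPM. Of 15 cohesin genes 1 was called, the meiotic kleisin gene rad21l1, at 451 and 389 CPM in SPG-Ad and 256 and 229 CPM in SPG-Aun. Of 20 SUMO pathway genes 1 was called higher, ranbp2, a nuclear pore protein gene, with a log2 fold change of 1.35 (SE 0.25).

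DNA methylation and heterochromatin genes included 2 fallers among 16 tested and 0 risers, where 0.409% of all genes were called lower and 1.66% higher. The gene cdca7b was at 127 and 139 CPM in SPG-Ad, against 497 and 393 CPM in SPG-Aun (log2 fold change -1.74, SE 0.25), and hells at 165 and 149 CPM against 370.0 and 279 CPM. Their human counterparts form 1 chromatin remodelling complex. The maintenance genes dnmt1 and uhrf1 had log2 fold changes of -0.21 and 0.12 and were not called. Of 117 genes of chromatin remodelling and histone modification 1 was called, the histone demethylase gene kdm7aa, which was lower (log2 fold change -1.56, SE 0.31). The telomere gene tinf2 fell by 1.32 on the log2 scale.

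Over all genes tested 1.66% were called higher and 0.409% lower. At those shares, lists as short as those of germline identity and spermatogonial differentiation would hold few or no calls. Of 28 genes of germline identity and germ granules 0 were called by edgeR or by DESeq2, 1 had an unadjusted p under 0.05, and the median log2 fold change was 0.01. Of 23 tested markers of undifferentiated spermatogonia known from fish and mammals 1 was called lower, e2f5, and 0 higher. The study named SPG-Aun by e2f5, so this call describes the label. DESeq2 and the replicate block each called 3 of the 23 markers lower and 0 higher. At an unadjusted p under 0.05 by edgeR 3 were lower and 0 higher, where 4.37% of all genes were lower. A further 16 matched markers were not tested. Of 18 tested markers of differentiating spermatogonia 0 were called by edgeR or DESeq2 and 0 had an unadjusted p under 0.05. The sex-determination factor gene dmrt1 was at 239.5 and 244 CPM in SPG-Ad and 221 and 225 CPM in SPG-Aun. The stem cell gene nanos2, known in fish and mammals, was at 4.96 and 1.80 CPM in SPG-Ad and 4.26 and 3.57 CPM in SPG-Aun and was not called.

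Of 46 meiosis genes 4 were called higher in SPG-Ad and 0 lower, where 1.66% and 0.409% of all genes were. The list median was 0.28 on the log2 scale. The 4 were msh5, exo1, tex11 and the kleisin gene rad21l1, given above with the cohesin genes. Outside the list, the meiosis initiation gene meiosin, known from mouse, was called higher. It was at 30.6 and 33.7 CPM in SPG-Ad, against 10.7 and 10.5 CPM in SPG-Aun. Its log2 fold change was 1.61 (SE 0.22), with an adjusted p of 0.00036 by edgeR's quasi-likelihood test. The recombination genes msh5, exo1 and tex11 rose by 1.04, 1.03 and 0.87 on the log2 scale, with levels of 12.7 and 12.7, 45.7 and 50.6, and 45.5 and 38.8 CPM in SPG-Ad. The call of tex11 was lost, with the same direction, when replicate 2 was labelled from the other set of genes. The synaptonemal complex gene sycp3 and the recombinase gene dmc1 had log2 fold changes of 0.45 and 0.61 and were not called. In SPG-B meiosin was at 257 and 301 CPM, above both type A stages.

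Of 102 tested nucleolar genes of ribosome biogenesis, 77 had negative log2 ratios in both replicates and 7 positive ones, and 1 was called, rrs1, a 60S assembly factor gene, at 67.8 and 63.5 CPM in SPG-Ad and 105 and 109 CPM in SPG-Aun. Over all genes tested, 4665 had negative and 4822 positive ratios in both replicates. The list median was -0.23, beside 0.00 for all genes tested. With the number of cells as library size it was -0.03, beside 0.19 for all genes. These genes took a median of 0.955% and 0.814% of the UMIs of a cell in SPG-Ad, against 1.17% and 1.12% in SPG-Aun. The 96 nuclear genes of oxidative phosphorylation had a median of -0.14 and 0 calls. That median was 0.06 with the number of cells as library size, again beside 0.19 for all genes.

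In 14 of the 28 lists no gene was called. Together they held 529 members, of which 15 were higher and 17 lower at an unadjusted p under 0.05, against 939 and 620 of all 14176 genes. In these lists DESeq2 called 3 higher and 8 lower, and the replicate block 5 higher and 4 lower. Among them were 75 ribosomal protein genes, 66 translation factors, 77 splicing factors, 35 heat shock and chaperonin genes, 49 proteasome genes, 16 glycolysis genes, 14 p53 response genes and 15 interferon-stimulated genes. The medians of these named lists lay between -0.07 and 0.04, beside 0.00 for all genes. Outside the 16 glycolysis genes, an identifier named TPI1, a glycolytic enzyme gene, was called lower in SPG-Ad. It was at 17.9 and 22.8 CPM in SPG-Ad and 37.3 and 41.0 CPM in SPG-Aun. Another identifier of the same name was not called. The 16 nuclear envelope genes had a median of 0.35, with 8 higher at an unadjusted p under 0.05, and the 13 genes of the mitochondrial genome and the 11 growth factor receptors had medians of -0.04 and 0.07. Data were simulated at the depth of these sums, with a common spread for all genes and independent sums. In them 37.3% of genes changed 2-fold and 83.3% of those changed 4-fold were called, so smaller changes were mostly missed there. The real genes differ in spread and the sums of a library are correlated, so the share missed in the real data was not measured. Some genes that changed under 2-fold were called in the real data.

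The other stages place these differences along spermatogenesis. Of the 235 genes higher in SPG-Ad than in SPG-Aun, 131 (55.7%) had their highest mean level over the 7 stages in SPG-Ad, 41 in SPC-I, 32 in round and 23 in elongating spermatids, 5 in secondary spermatocytes and 3 in SPG-B. Of the 58 lower genes, 24 (41.4%) were highest in SPG-Aun and 21 were lowest in SPG-Ad. Of all genes tested 14.8% were highest in SPG-Ad and 16.6% in SPG-Aun, and the calls themselves fix which type A stage is the higher one, so these shares are descriptions. Set against SPG-B, 144 of the 235 higher genes had an SPG-B level between those of the type A stages, 70 a level below both and 21 a level above both. Of the 58 lower genes, 27 were higher in SPG-B than in either type A stage.

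Summed levels over the stages differed in course between gene groups. Histone-named genes summed to 280.5 and 287 CPM in SPG-Aun, 1071 and 943 CPM in SPG-Ad, 592 and 643 CPM in SPG-B and 1186 and 1164 CPM in SPC-I. In elongating spermatids their replicates lay apart, at 510 and 1118 CPM. The genes cdc20, ccnb1 and ccnb3 summed to 1271 and 1059.5 CPM in SPG-Aun, 412 and 409 CPM in SPG-Ad, 2084 and 1773 CPM in SPG-B and 137 and 134 CPM in SPC-I. They are the members of the mitosis list called lower in SPG-Ad, so a sum below that of SPG-Aun was fixed by their choice. The related ccnb2 was left out. An SPG-B marker of the study, ccnb1, made up 1025 and 865 CPM of the SPG-B sums, which thus partly describe the label. Licensing genes summed to 3586 and 3346 CPM in SPG-Aun, 2259 and 2294 CPM in SPG-Ad and 1449.8 and 1404 CPM in SPG-B, lower at each step in both replicates. They include the SPG-Aun markers mcm3, at 507 and 405 CPM in SPG-Aun, and mcm4, at 502 and 444 CPM. The licensing sums thus partly describe the label.

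Polymerase, replication factor C and pcna genes had their highest sums in SPG-Ad among the spermatogonia, at 2738 and 2774 CPM in SPG-Aun, 3694 and 3864 CPM in SPG-Ad and 1712 and 1629 CPM in SPG-B. An SPG-Ad marker of the study, pcna, made up 1321 and 1417 CPM of the SPG-Ad sums. In the SPG-Aun sums pcna made up 809 and 858 CPM, so the sums partly describe the label. Nucleolar genes summed to 11265 and 10959 CPM in SPG-Aun, 10048 and 9266 CPM in SPG-Ad and 3837 and 3504 CPM in SPG-B. The larger step for the nucleolar genes was the later one. Meiosis genes were higher at each step from SPG-Aun to SPC-I, with 4504 and 4119 CPM in SPG-Aun, 5257 and 5224 CPM in SPG-Ad, 8387 and 7277 CPM in SPG-B and 20814 and 19915 CPM in SPC-I. In secondary spermatocytes their sums were lower again, at 12034 and 12224 CPM.

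**Figure D5:**
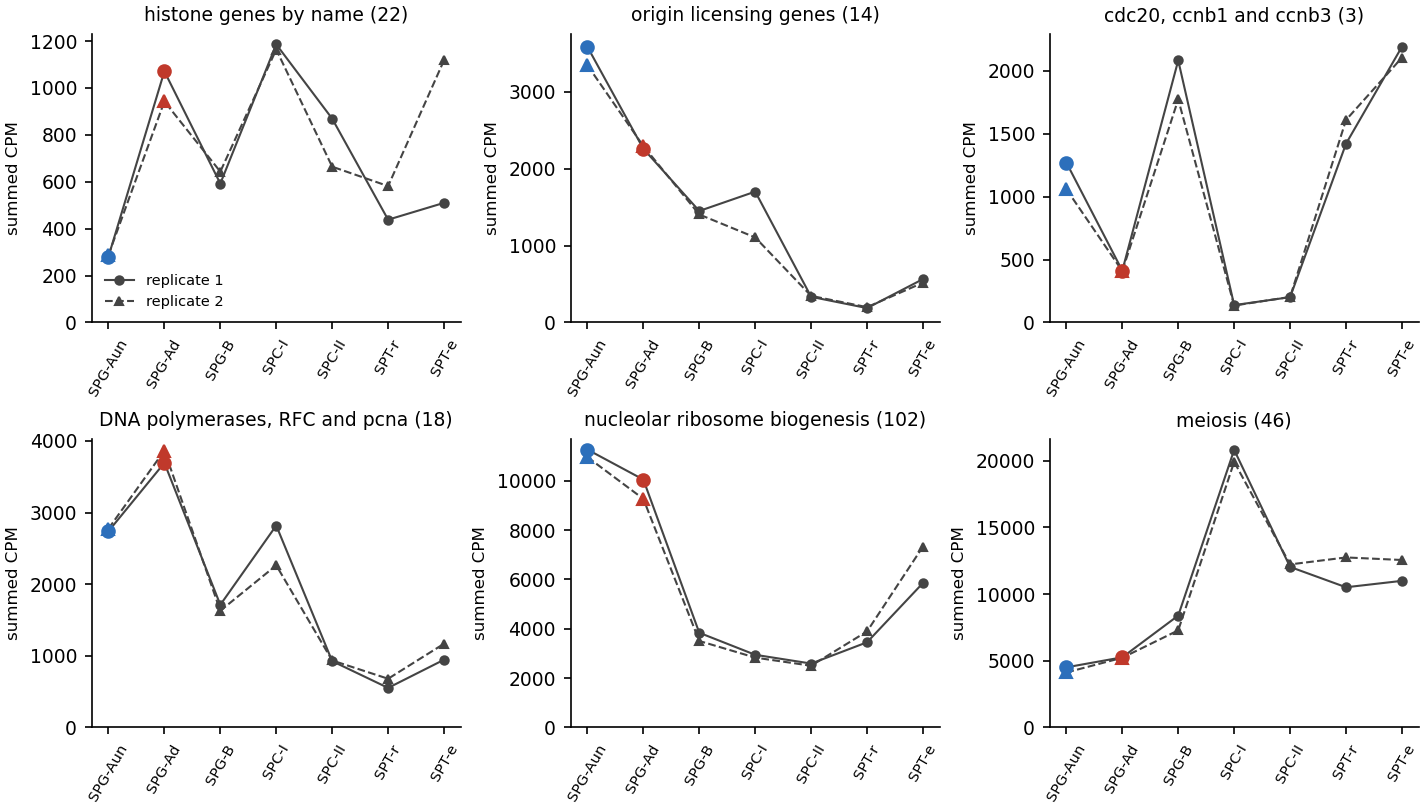
Summed CPM of 6 gene groups along the stages from SPG-Aun to elongating spermatids, with 1 line per replicate and the 2 type A stages marked in colour. Histone genes rise in SPG-Ad and again in SPC-I, where cdc20, ccnb1 and ccnb3 are low, and the nucleolar sum is lower in SPG-B than in SPG-Ad. In elongating spermatids the histone sums of the replicates lie apart, at 510 and 1118 CPM, and cdc20, ccnb1 and ccnb3 sum to 2193 and 2106 CPM.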

How the data were processed

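Testis cells were profiled in 2 droplet libraries (10x Genomics 3′ chemistry). The authors deposited raw UMI counts per gene and barcode for each library, made with Cell Ranger on danRer11, version 7.2.0 per the labels and 6.1.2 per the matrix header. How reads shared by gene copies were counted is not given in the sources used here. Barcodes with 200 to 7000 genes and at most 5% mitochondrial UMIs were kept (3018 and 5104). All 1999 annotated cells, from replicate 1, were found among them. The annotation used here is shortened and ends after these cells, so replicate 1 barcodes beyond the last of them received no stage. Each cell was scaled to 10000 counts before the log was taken, and 2000 variable genes were chosen by variance over a lowess trend with 1234 listed genes left out. Replicate 2 cells took the majority stage of 15 neighbours over 30 components (scanpy 1.11.5). Replicate 2 cells of clusters with under 5% of their cells in 1 replicate received no stage. Neither did replicate 2 cells voted to 112 passing replicate 1 cells within the annotated barcode range that carried no study annotation. When study labels were hidden in turn, 96.3% of cells were recovered, 94.2% for SPG-Ad and 97.1% for SPG-Aun. Hidden cells and their neighbours were all of replicate 1, so transfer between libraries to replicate 2 was not measured by this recovery. The way of choosing variable genes was picked after the files were seen, by this recovery and before any comparison: scanpy's default recovered 76.9%. Doublets called were 76 and 98 and were kept in the main fit. The libraries shared 8 barcodes, 0 of them among type A cells.

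Counts were summed for 7 stages and 2 replicates and fitted with edgeR 4.0.16 (TMM, filterByExpr, quasi-likelihood test, R 4.3.3). SPG-Ad sums held 4475536 and 7745901 UMIs and SPG-Aun sums 3643142 and 9678660. CPM use TMM-scaled library sizes, except marker sums, which use unscaled totals. The study calls the libraries biological replicates, and p-values measure only the spread between them. Both sums of a replicate number come from 1 library, and their deviations from the stage means correlated at 0.485 (0.109 to 0.485 over 21 stage pairs), so the numbers pair the sums. Tests were checked on data simulated with a common spread and independent sums, with 3 false calls among 14176 genes. Named genes were the 12 largest rises and falls over 2-fold with a mean of at least 20 CPM and a symbol not of clone type, the study's SPG-Aun and SPG-Ad markers, up to 6 called members of each list and paralogs that moved the other way. Genes named beside these were chosen after their values were seen. Members and lists were chosen with earlier results of these data known. Symbols in upper case are printed in lower case where RefSeq GRCz12tu has them so. The planned promoter motif description was not run and no sequence is printed.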

Additional observations from a re-analysis of the deposited data

How the results depend on the processing

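The counts of genes called higher and lower depended on the settings, while direction held: in every setting but scanpy's default variable genes, all of the 293 called genes that were tested kept their sign. Leaving out 1 sum gave 115 to 161 higher genes and 21 to 27 lower, and over 2-fold 115 to 158 higher and 19 to 27 lower. The replicate block gave 518 higher and 227 lower, 83 of them lower over 2-fold, and changed no call to uncalled. The number of cells as library size gave 371 higher and 35 lower (22 over 2-fold), and DESeq2 gave 166 lower (61 over 2-fold). No filter on low counts gave 91 lower, the 4 type A sums alone 108 lower, a vote of at least 12 of 15 neighbours 61 lower over 2-fold, and a plain vote among annotated cells 20 lower (19 over 2-fold). The next 2 alternatives were chosen after seeing the data. With clone-named and histone genes left out of the variable genes 29 genes were lower (22 over 2-fold) and 191 of the 293 were called. There 14 of the named called genes lost their call with the same direction. They were mcm3, smc4, knl1, e2f3, gmnn, nme3, msh5, tex11, cenpe, rrs1, tubb4b, hmga1a, mibp and tinf2. For mcm3, smc4 and knl1 the adjusted p was 0.060, 0.077 and 0.076 by edgeR's quasi-likelihood test. With scanpy's default variable genes 1 gene was higher, that 1 over 2-fold, and 0 were lower, 275 of 281 tested genes kept direction with replicate 1 unchanged and 2 of 542 replicate 2 SPG-Ad cells shared, and foxm1 and msh5 reversed to log2 fold changes of -0.26 and -0.10. That setting recovered 76.9% of hidden labels within replicate 1, and the counts rest on how replicate 2 was labelled. With 2 replicates a side, 1.49% of 1.5-fold changes were called in the simulation with a common spread.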

Other observations

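Some called genes lay outside the named rule or the lists and were chosen after their values were seen. The ribonucleotide reductase gene named RRM2 was at 678 and 762 CPM in SPG-Ad, against 261 and 265 CPM in SPG-Aun (log2 fold change 1.45, SE 0.19), and the PCNA-associated gene pclaf at 770.4 and 867 CPM against 377 and 378 CPM. The centriole duplication kinase gene plk4 was at 40.4 and 49.7 CPM in SPG-Ad and 24.5 and 20.4 CPM in SPG-Aun. The cyclin G gene ccng2 was at 67.3 and 85.7 CPM in SPG-Ad and 24.5 and 27.6 CPM in SPG-Aun, and the kinase inhibitor gene cdkn2d at 15.3 and 14.2 CPM against 1.33 and 3.57 CPM. Both replicates of SPG-Ad lay above both of SPG-Aun for these genes, which their calls make likely.

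Signalling genes at low levels were among the risers as well. The growth factor gene bmp8a was at 10.8 and 11.4 CPM in SPG-Ad and 2.40 and 4.17 CPM in SPG-Aun, and the neuropeptide gene vip at 20.7 and 15.5 CPM against 5.33 and 3.18 CPM. Among the fallers outside the rule, rassf7b was at 1.51 and 1.92 CPM in SPG-Ad and 18.6 and 10.5 CPM in SPG-Aun (log2 fold change -2.96, SE 0.50), mcmbp, whose product binds MCM proteins, at 44.5 and 44.8 CPM against 114 and 89.3 CPM, and pprc1 at 32.4 and 33.0 CPM against 74.6 and 67.3 CPM.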
